A study of Mus musculus with 48 samples.

Results

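Transforming growth factor beta (TGF-beta) genes were read in the thoracic aorta as a set of 10: the ligands Tgfb1, Tgfb2 and Tgfb3, the receptors Tgfbr1, Tgfbr2 and Tgfbr3, and the latent TGF-beta binding proteins Ltbp1, Ltbp2, Ltbp3 and Ltbp4. They were taken by symbol from a table of 18782 genes, and all 10 were found and passed the filter on low counts. The table held 48 libraries, each from 1 wild-type C57BL/6J mouse. Males and females drank either normal water (MaCon, n = 10, and FeCon, n = 10) or water with 0.4% β-aminopropionitrile (BAPN) for 28 days from 3 weeks of age. BAPN-treated mice were divided at day 28 into those with aortic dissection or aneurysm (MaAAD, n = 7, and FeAAD, n = 9) and those without (MaNonAD, n = 4, and FeNonAD, n = 8). Outcome, not allocation, therefore separated NonAD from AAD, and mice that died of rupture before the end were not among the libraries. BAPN blocks lysyl oxidase, which joins collagen and elastin chains into stable fibers.

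Each TGF-beta ligand is secreted as a latent complex, in which its own propeptide holds the growth factor inactive and a latent binding protein ties the complex to fibrillin and fibronectin in the matrix. LTBP1, LTBP3 and LTBP4 bind the latent ligand, whereas LTBP2 binds fibrillin but not the latent complex. Released ligand is bound by the type II receptor TGFBR2, which then recruits and phosphorylates the type I receptor TGFBR1, and the kinase of TGFBR1 activates SMAD2 and SMAD3. TGFBR3, or betaglycan, is a coreceptor without a kinase and is best known for presenting TGF-beta2. In people, inherited variants in several of these genes cause thoracic aortic aneurysm and dissection.

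The files name genes by symbol only. In the GENCODE M21 annotation of GRCm38, Tgfb1 and Ltbp4 lie on chromosome 7, Tgfb3 and Ltbp2 on chromosome 12, Tgfb2 on 1, Tgfbr1 on 4, Tgfbr3 on 5, Tgfbr2 on 9, Ltbp1 on 17 and Ltbp3 on 19. The authors aligned to GRCm39, so positions of reads are not given. RefSeq promoter windows of GRCm38.p6, from 250 bases before to 50 after a start site, were matched by symbol for 8 of the 10 genes (12 windows), and Tgfb3 and Tgfbr3 had none. Tgfb1, Ltbp2 and Ltbp4 are shown because these were the genes called in AAD aortas of both sexes. Capitals mark matches, on either strand, to the SMAD box CAGAC, the GC box GGGCGG, the AP-1 word TGANTCA, the TATA word TATAAA or the CArG box. The windows lie at chr7:25686752-25687051 on the plus strand, at chr12:84876442-84876741 on the minus strand and, for the first of 3 Ltbp4 windows, at chr7:27337563-27337862 on the minus strand.
Tgfb1: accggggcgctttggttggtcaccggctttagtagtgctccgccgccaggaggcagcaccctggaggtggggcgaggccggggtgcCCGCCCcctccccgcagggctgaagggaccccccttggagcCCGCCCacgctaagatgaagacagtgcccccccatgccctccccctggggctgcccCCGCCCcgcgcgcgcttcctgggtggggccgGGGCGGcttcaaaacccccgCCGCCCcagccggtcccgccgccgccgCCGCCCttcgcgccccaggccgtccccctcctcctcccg
Ltbp2: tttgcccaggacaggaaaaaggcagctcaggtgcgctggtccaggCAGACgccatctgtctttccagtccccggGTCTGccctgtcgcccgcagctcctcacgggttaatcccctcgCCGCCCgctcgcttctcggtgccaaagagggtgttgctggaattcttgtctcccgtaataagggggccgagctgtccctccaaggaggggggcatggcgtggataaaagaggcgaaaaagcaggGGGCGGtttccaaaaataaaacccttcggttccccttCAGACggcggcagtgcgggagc
Ltbp4: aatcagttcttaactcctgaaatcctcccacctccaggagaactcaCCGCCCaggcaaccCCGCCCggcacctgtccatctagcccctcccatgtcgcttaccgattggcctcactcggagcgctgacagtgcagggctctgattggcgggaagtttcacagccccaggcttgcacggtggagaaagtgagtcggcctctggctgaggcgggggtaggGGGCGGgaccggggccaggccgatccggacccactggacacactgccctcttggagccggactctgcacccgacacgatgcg
The Ltbp2 window held 3 SMAD boxes and 2 GC boxes. The Tgfb1 window held 6 GC boxes and no SMAD box, and the Ltbp4 window held 3 GC boxes and no SMAD box. The other Ltbp4 windows held 7 and 9 GC boxes, also without a SMAD box, and overlapped each other. Among the 12 windows, 7 held a SMAD box and 6 a GC box, while 49.6% and 35.7% of 32851 windows of mouse genes did so. A TATA word was found in the Tgfb2 window only (13.6% of all windows), an AP-1 word in the Ltbp3 window only, where it overlapped a SMAD box (7.81% of all windows), and a CArG box in none (1.63% of all windows). These matches are letters and not measured binding.

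Library totals ranged from 13548015 to 17281268 counts, and no library of any gene in the set fell under 532 counts, so counting error was small against the spread between mice. The labels give no batch. All 5 smooth muscle markers (Acta2, Myh11, Tagln, Cnn1 and Smtn) were detected in every group, with summed levels of 26720 to 58520 CPM (counts scaled to library size) in MaCon and 29040 to 50320 CPM in FeCon. All 5 were lower in AAD than in Con in both sexes, with summed levels of 11400 to 28450 CPM in MaAAD and 13660 to 30900 CPM in FeAAD. All 6 macrophage markers were higher, at 323.2 to 1248 CPM in MaAAD and 259.2 to 1299 CPM in FeAAD against 75.3 to 211.2 CPM in MaCon and 86.4 to 215.7 CPM in FeCon. No marker of either list was at 0 in a whole group. Neutrophil markers were higher in 3 of 4 genes in MaAAD and 4 of 4 in FeAAD. Platelet markers were higher in 2 of 4 genes in MaAAD (summed 26.8 to 390.3 CPM against 10.0 to 24.4 CPM in MaCon) and 4 of 4 in FeAAD (23.3 to 713.4 against 10.4 to 25.8 CPM in FeCon), highest in MaAAD7 and FeAAD5. B cell markers were higher in 2 of 4 genes in MaAAD, 4 of 4 in FeAAD, 3 of 4 in MaNonAD and 1 of 4 in FeNonAD, with sums of at most 26.2 CPM. Of 5 fibroblast markers 3 were higher in MaAAD, in FeAAD 2 were higher and 1 lower, and in FeNonAD 1 was higher. Of 5 endothelium markers 1 was higher in MaAAD, 1 higher and 1 lower in FeAAD and 1 lower in FeNonAD, while 3 of 5 striated muscle markers were lower in FeAAD. The part of these lists in the results was not tested. FeAAD5 stood apart with the highest macrophage sum of its group and a neutrophil sum of 724.1 CPM, FeAAD9 had a neutrophil sum of 140.8 CPM, and the other FeAAD libraries lay between 1.32 and 11.4 CPM. MaAAD7 had the highest macrophage and neutrophil sums (136.6 CPM) of its group. In whole tissue, fewer cells of a type and less RNA per cell cannot be told apart.

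Ltbp4, Ltbp3 and Ltbp1 were the most abundant of the 10 genes in controls. On the scale of CPM per kilobase of the longest coding transcript, Ltbp4 was the highest in MaCon at 431.1 ± 51.0 (SD, n = 10), followed by Ltbp3 at 169.3 ± 16.4 and Ltbp1 at 127.5 ± 23.3. Tgfb3, at 106.8 ± 20.4, was the most abundant ligand and stood above Tgfb1 at 25.5 ± 8.59 and Tgfb2 at 21.1 ± 6.48. Ltbp2 lay between the ligands, at 52.0 ± 9.41, and the receptors were low, with Tgfbr2 at 21.8 ± 1.89, Tgfbr1 at 17.8 ± 2.55 and Tgfbr3 at 15.1 ± 1.85. FeCon kept the first 7 places in this order. In both control groups the ranges of Ltbp4 and Ltbp3 did not overlap, nor did those of Tgfb3 and Ltbp2, whereas those of all other neighbours in the order overlapped. Tgfb1 exceeded Tgfbr2 in only 5 of 10 MaCon libraries, so their order there is not settled. By the group mean, Ltbp2 took the third place in AAD aortas of both sexes, at 120.0 ± 30.3 in MaAAD (n = 7) and 131.9 ± 66.8 in FeAAD (n = 9), next to Ltbp1 at 107.5 ± 32.8 and 119.8 ± 24.5. Ltbp2 exceeded Ltbp1 in 5 of 7 MaAAD and 4 of 9 FeAAD libraries, and in FeAAD its median of 107.8 was below that of Ltbp1 (123.7), so their order is not settled. With lengths from the union of exons, the first 7 places within each group were the same.

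**Figure D1:**
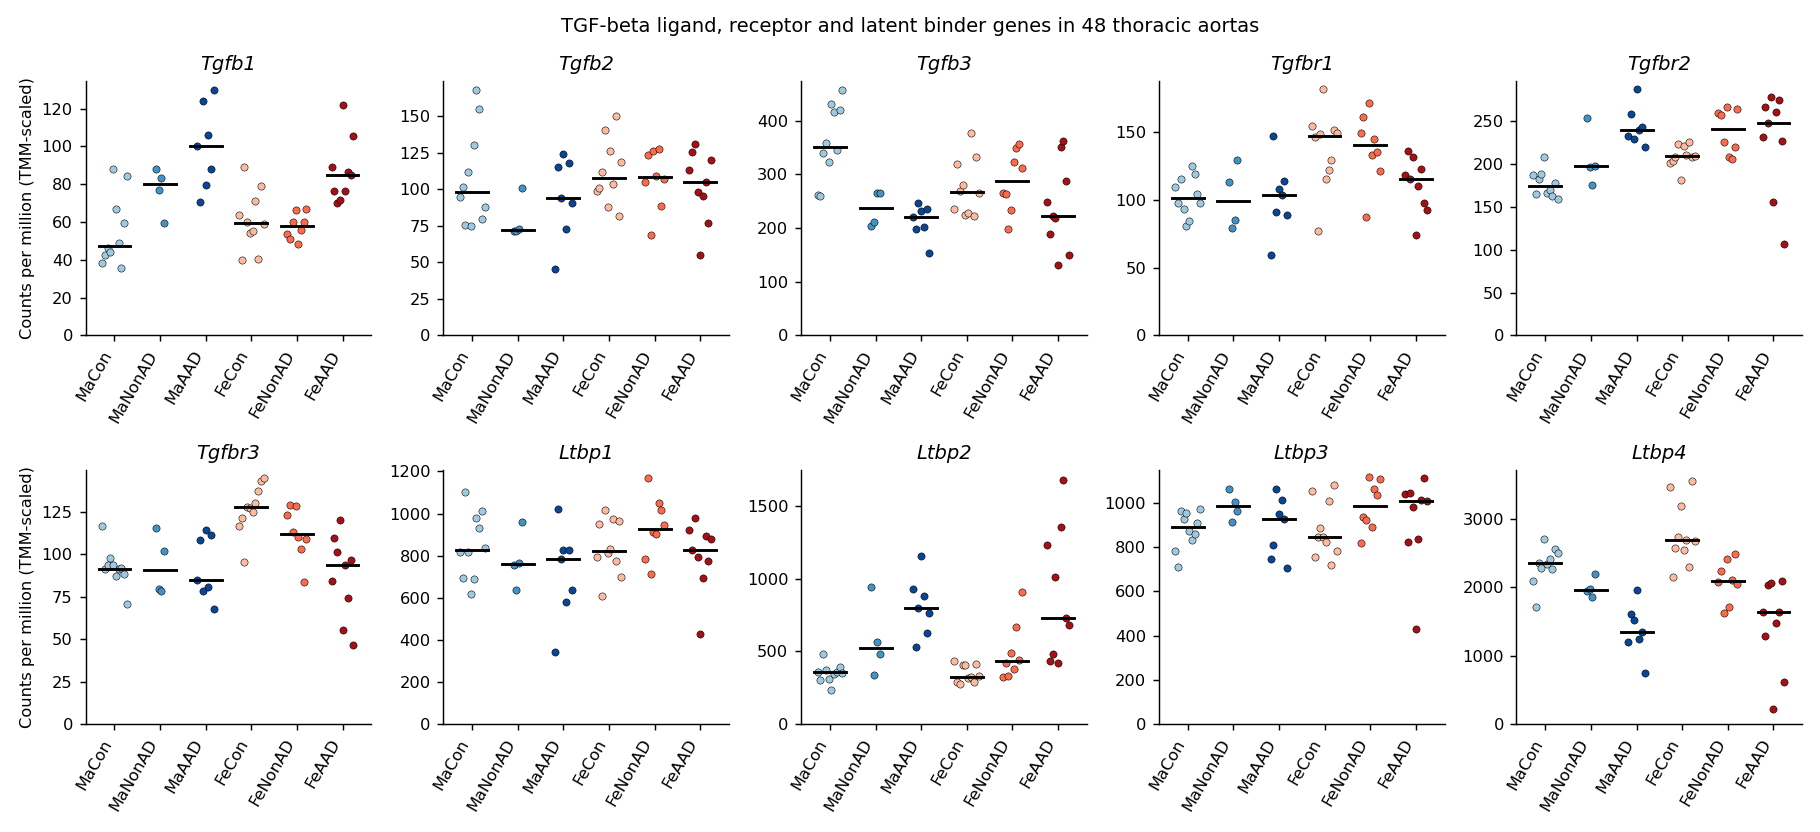
CPM (TMM-scaled, linear axis from 0) of the 10 genes in each of 48 libraries, by group, with a bar at the group median. Ltbp2 lies higher and Ltbp4 lower in MaAAD and FeAAD than in the controls of the same sex, and Ltbp3 shows similar medians in all 6 groups apart from 1 low FeAAD library at 430.4.

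In aortas with dissection or aneurysm, Ltbp2 and Tgfb1 were higher and Ltbp4 lower than in controls of both sexes. In males Tgfb3 was also lower and Tgfbr2 higher, and in females Tgfbr3 was lower. Called here means a Benjamini-Hochberg adjusted p under 0.05 over all 14431 genes tested in edgeR's quasi-likelihood test. In MaAAD against MaCon 3 of the 10 genes rose and 2 fell, where 18.9% of all tested genes rose and 16.1% fell. In FeAAD against FeCon 2 rose and 2 fell, where 23.8% of all tested genes rose and 20.6% fell. Ltbp2 alone also passed a 2-fold change, the study's rule for differentially expressed genes (DEGs), which 11.4% of tested genes passed in males and 12.7% in females. The median log2 fold change of the 10 genes was -0.01 in males and -0.10 in females, against -0.03 and 0.00 over all tested genes.

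Among the ligands, Tgfb1, the form most widely made by immune and vascular cells, ranged from 35.5 to 87.8 CPM in MaCon (median 47.6) and from 70.7 to 129.9 CPM in MaAAD (median 99.99). Every MaAAD library lay above the MaCon median and 5 of 7 above the highest MaCon library. Tgfb1 thus rose by a log2 fold change of 0.85 ± 0.16 (SE), or 1.80-fold (edgeR adjusted p = 3.84e-05). In females Tgfb1 ranged from 40.0 to 89.0 CPM in FeCon (median 59.5) and from 70.1 to 121.9 CPM in FeAAD (median 84.9). All 9 FeAAD libraries lay above the FeCon median, but only 3 above its highest library. The female rise was 0.51 ± 0.15 on the log2 scale (edgeR adjusted p = 0.00543). The highest FeAAD values, 121.9 and 105.4 CPM, belonged to FeAAD5 and FeAAD9, and without both the log2 fold change was 0.38, with an adjusted p of 0.0502.

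Tgfb3, the ligand with the highest mean CPM per kilobase in every group, ranged from 260.0 to 457.6 CPM in MaCon (median 351.9) and from 154.2 to 246.8 CPM in MaAAD (median 220.5). The ranges did not overlap, since all 7 MaAAD libraries lay below the lowest MaCon library. Tgfb3 had a log2 fold change of -0.77 ± 0.16 (edgeR adjusted p = 0.000163). Per kilobase, Tgfb3 exceeded Tgfb1 in 6 of 7 MaAAD and 7 of 9 FeAAD libraries. In females the ranges were 223.4 to 377.0 CPM in FeCon (median 267.2) and 131.3 to 361.4 CPM in FeAAD (median 221.9). FeAAD was widely spread, with 5 of 9 libraries below the lowest control and 3 above the control median. The lowest values were those of FeAAD5, at 131.3 CPM, and FeAAD9, at 150.0 CPM. The difference of -0.20 (95% interval -0.49 to 0.09) was not called (edgeR adjusted p = 0.278). Tgfb2, a ligand with a part in outflow tract development, ranged from 45.3 to 124.2 CPM in MaAAD against 74.8 to 167.9 CPM in MaCon, and from 55.2 to 131.0 CPM in FeAAD against 81.6 to 150.3 CPM in FeCon. Neither difference was called, at -0.19 (-0.55 to 0.16) in males and -0.13 (-0.46 to 0.20) in females.

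Of the receptors, Tgfbr2, the type II kinase that binds ligand first, ranged from 158.6 to 208.2 CPM in MaCon (median 173.9) and from 219.4 to 287.6 CPM in MaAAD (median 239.7). All 7 MaAAD libraries lay above all 10 controls. This was a 1.38-fold rise, or 0.47 ± 0.11 on the log2 scale (edgeR adjusted p = 0.000796). In females 7 of 9 FeAAD libraries lay above the highest FeCon library at 225.9 CPM, and the other two, FeAAD5 at 156.0 and FeAAD9 at 106.6 CPM, lay below the lowest at 181.8 CPM. With all 9 libraries the log2 fold change was 0.12 (-0.09 to 0.33) and not called. Without FeAAD5 and FeAAD9 it was 0.30 and called (edgeR adjusted p = 0.000934), and without FeAAD9 alone it was 0.21 (adjusted p = 0.0324).

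Tgfbr3, the betaglycan coreceptor, ranged from 95.5 to 144.9 CPM in FeCon (median 127.6) and from 46.3 to 120.0 CPM in FeAAD (median 94.0). All 9 FeAAD libraries lay below the FeCon median, and 5 below its lowest library. Tgfbr3 had a log2 fold change of -0.55 ± 0.12 (edgeR adjusted p = 0.000351), and -0.37 without FeAAD5 and FeAAD9 (adjusted p = 0.0053). In males Tgfbr3 was at 70.5 to 116.5 CPM in MaCon and 67.5 to 114.5 CPM in MaAAD. The male difference was 0.00 with an interval of -0.27 to 0.27. Tgfbr1, the type I kinase, ranged from 59.1 to 146.8 CPM in MaAAD against 80.3 to 124.6 CPM in MaCon, a difference of -0.01 (-0.31 to 0.28). In females all 9 FeAAD libraries, at 74.0 to 135.9 CPM, lay below the FeCon median of 147.2 CPM, and the log2 fold change of -0.31 (-0.58 to -0.04) did not pass (edgeR adjusted p = 0.0593).

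Of the latent binders, Ltbp2, an elastic fiber protein, changed most in both sexes. It ranged from 237.9 to 481.5 CPM in MaCon (median 355.9) and from 533.0 to 1155 CPM in MaAAD (median 796.0), without overlap. The log2 fold change was 1.21 ± 0.23, a 2.31-fold rise (edgeR adjusted p = 3.45e-05). In females it ranged from 275.2 to 436.1 CPM in FeCon (median 327.4) and from 423.5 to 1679 CPM in FeAAD (median 729.6). FeAAD spread widely, with 8 of 9 libraries above the highest control and 3, namely FeAAD2, FeAAD3 and FeAAD5, at or under 481.8 CPM. The log2 fold change was 1.36 ± 0.21, a 2.56-fold rise (edgeR adjusted p = 1.57e-06).

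Ltbp4, which is needed for elastic fiber assembly as well as for latent TGF-beta, ranged from 1710 to 2706 CPM in MaCon (median 2350) and from 747.7 to 1953 CPM in MaAAD (median 1346). Of the 7 MaAAD libraries, 6 lay below the lowest control. The log2 fold change was -0.76 ± 0.22 (edgeR adjusted p = 0.00643). In females Ltbp4 ranged from 2152 to 3549 CPM in FeCon (median 2682) and from 221.7 to 2088 CPM in FeAAD (median 1641), without overlap. The log2 fold change was -0.94 ± 0.21 (edgeR adjusted p = 0.000227). FeAAD5 at 221.7 CPM and FeAAD9 at 609.8 CPM were far below the other FeAAD libraries, the lowest of which was at 1288 CPM, and without both the log2 fold change was -0.66 (adjusted p = 8.28e-05). Ltbp1 and Ltbp3 were not called. Ltbp1 differed by -0.25 (-0.55 to 0.06) in males and -0.08 (-0.36 to 0.21) in females, and Ltbp3, a binder of latent TGF-beta with known roles in bone, by 0.02 (-0.22 to 0.25) and 0.07 (-0.15 to 0.29).

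**Figure D2:**
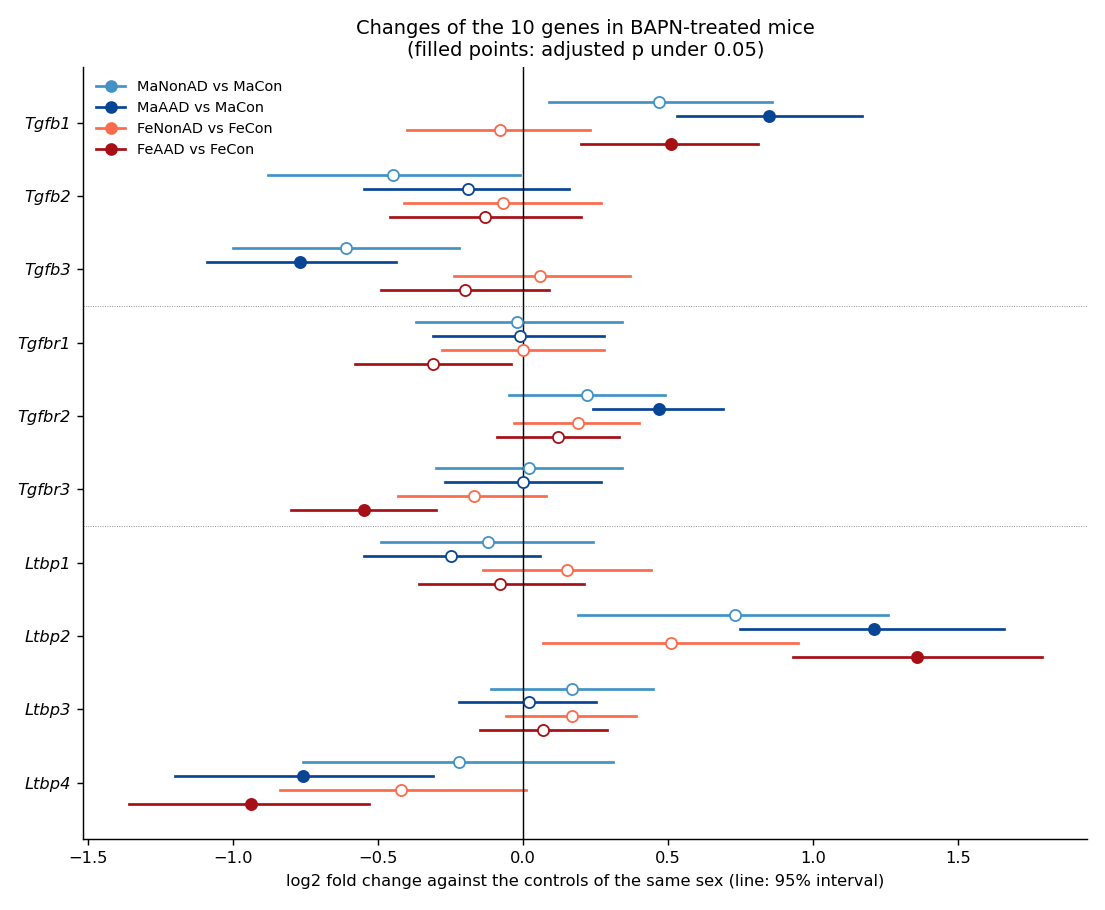
Log2 fold changes of the 10 genes against controls of the same sex (x axis), with 95% intervals as lines, for NonAD and AAD mice of each sex. Filled points have an edgeR adjusted p under 0.05: 5 genes in MaAAD, 4 in FeAAD and none in either NonAD group. Dotted lines separate ligands, receptors and latent binders.

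Because 1 or 2 libraries bore on several of these values, the extremes were counted within the 10 genes. They were not counted over all tested genes, so these counts are not shown to be particular to this set. FeAAD5 was the lowest of the 9 FeAAD libraries in 7 of the 10 genes and the highest in 1, Tgfb1, and FeAAD9 was the lowest in 2. MaAAD7 was the lowest of 7 in 5 genes (Tgfb3, Tgfbr2, Tgfbr3, Ltbp3 and Ltbp4) and the highest in Tgfb1, whereas MaAAD4 was the highest in 5. FeAAD5 and FeAAD9 had 16453895 and 16332317 counts, and the other FeAAD libraries 15867070 to 16374978. The part of the macrophage and neutrophil markers in these values was not tested.

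Whether BAPN without dissection or aneurysm was accompanied by a change was asked by comparing NonAD with Con. None of the 10 genes was called in either sex, where 0.624% of tested genes were called in males and 14.5% in females. The male share moved with single libraries: 90 genes were called with all libraries, 16 without MaNonAD1, 41 without MaNonAD3 and 137 without FeAAD5. At an unadjusted p under 0.05 there were 4 of the 10 genes in males and 1 in females, beside 1734 and 4172 of all 14431 tested genes, and DESeq2 called 0 of the 10 in both. Tgfb3 measured 204.0, 210.9, 265.0 and 265.7 CPM in the 4 MaNonAD libraries, all below the MaCon median, with a log2 fold change of -0.61 ± 0.19 (edgeR adjusted p = 0.145). Ltbp2 measured 946.1, 336.3, 564.3 and 481.0 CPM there, 2 of which, MaNonAD1 and MaNonAD3, lay above the highest control, and its log2 fold change was 0.73 (0.19 to 1.26, adjusted p = 0.215). Tgfb1 measured 88.2, 77.0, 83.3 and 59.3 CPM, a difference of 0.47 (0.09 to 0.86, adjusted p = 0.275). Tgfb2 differed by -0.45 (-0.88 to -0.01, adjusted p = 0.398).

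In FeNonAD, Ltbp2 ranged from 322.6 to 907.3 CPM (median 432.2, highest in FeNonAD8, next in FeNonAD6 at 665.6), with 4 of 8 libraries above the highest FeCon library. Its log2 fold change was 0.51 (0.07 to 0.95, edgeR adjusted p = 0.111). Ltbp4 ranged from 1627 to 2484 CPM (median 2094), all 8 below the FeCon median and 5 below its lowest library. Its log2 fold change of -0.42 (-0.84 to 0.01) was not called with all libraries in the fit (adjusted p = 0.183), but was with FeAAD5 and FeAAD9 left out of the shared spread (-0.41, adjusted p = 0.0159), as was Tgfbr2 (0.19, adjusted p = 0.0455). With only these groups fitted, Ltbp4 (-0.41, adjusted p = 0.0144) and Ltbp2 (0.51, adjusted p = 0.0467) were called.

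AAD was then set against NonAD of the same sex, 2 outcomes of the same treatment. In males none of the 10 was called, and 0.409% of all tested genes were. That share is unstable, since 59 genes were called with all libraries, 524 without MaNonAD1, 0 without any other MaNonAD library, 889 without FeAAD5, 394 without FeNonAD8 and 223 without FeAAD9. No male difference had an unadjusted p under 0.05, beside 2695 of all 14431 tested genes, DESeq2 called 0, and the lowest adjusted p was 0.286, for Ltbp4 at -0.53 (-1.08 to 0.02). With FeAAD5 and FeAAD9 left out of the fit, that difference was called (-0.53, edgeR adjusted p = 0.0337). In females 2 genes rose and 1 fell, where 13.2% of tested genes rose and 5% fell. In the same comparison 4 of 5 smooth muscle markers were lower, and 6 of 6 macrophage, 4 of 4 neutrophil, 4 of 4 platelet, 3 of 4 B cell and 2 of 5 fibroblast markers were higher, and their part in the results was not tested. Tgfb1 ranged from 48.3 to 67.1 CPM in FeNonAD, and all 9 FeAAD libraries lay above this, with a log2 fold change of 0.59 ± 0.16 (edgeR adjusted p = 0.00737). Without FeAAD5 and FeAAD9 it was 0.46 (adjusted p = 0.0776). Ltbp2 was higher by 0.85 ± 0.23 (adjusted p = 0.00649), with 8 of 9 FeAAD libraries above the FeNonAD median, a call lost when only these groups were fitted (0.85, adjusted p = 0.0777). Tgfbr3 was lower by -0.37 ± 0.13 (adjusted p = 0.0386), a call lost without FeAAD5 (-0.31, adjusted p = 0.116) or without FeAAD9 (-0.29, adjusted p = 0.0948). AAD and NonAD were each compared with the same Con libraries, so those comparisons are not independent.

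The sexes differed in the controls for 2 receptors. Per the paper, males and females were housed separately, so sex and housing cannot be told apart. Of the cell type markers, 1 of 4 T cell and 1 of 4 platelet markers were higher in MaCon. No marker of the other lists was called, and the part of markers in these results was not tested. Tgfbr3 was at 70.5 to 116.5 CPM in MaCon (median 91.5) and 95.5 to 144.9 CPM in FeCon (median 127.6), with 8 of 10 male libraries below the lowest female library. It was lower in males by -0.46 ± 0.12 (edgeR adjusted p = 0.00818). Tgfbr1 had a median of 100.9 CPM in MaCon and 147.2 CPM in FeCon, and all 10 male libraries lay below the female median. It was lower in males by -0.42 ± 0.13 (edgeR adjusted p = 0.0260). Over all tested genes 7.92% were lower and 6.38% higher in MaCon. Tgfb3 was higher in MaCon by 0.39 (0.11 to 0.68) and Tgfbr2 lower by -0.25 (-0.45 to -0.04), with adjusted p values of 0.0556 and 0.0948 that fell under 0.05 without FeAAD5 and FeAAD9 (0.0254 and 0.00596). In BAPN-treated mice no gene of the set was called between the sexes, where 0.0624% of tested genes were called between MaNonAD and FeNonAD and 0.0901% between MaAAD and FeAAD. At an unadjusted p under 0.05 there were 2 genes (Tgfbr1 and Tgfb1) in NonAD and 0 in AAD, beside 935 and 321 of all 14431 tested genes, and DESeq2 called 0 of the 10 in both.

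That Tgfb3 and Tgfbr2 were called only in males and Tgfbr3 only in females did not by itself show a difference in response, so the interaction was tested. No gene of the set was called for the AAD response (1.34% of tested genes), the NonAD response (0.416%) or the step from NonAD to AAD (0%). At an unadjusted p under 0.05 there were 3, 2 and 0 of the 10 genes, respectively, beside 2220, 1751 and 149 of all 14431 tested genes, and DESeq2 called 0 of the 10 in each. For the AAD response, male minus female, Tgfbr3 differed by 0.55 (0.18 to 0.91, edgeR adjusted p = 0.107), Tgfb3 by -0.57 ± 0.21 (adjusted p = 0.171) and Tgfbr2 by 0.35 (0.04 to 0.66, adjusted p = 0.253). Without FeAAD5 and FeAAD9 the Tgfb3 difference was -0.71 and called (edgeR adjusted p = 0.0326), the only call of the set for this response. As given above, without them the female changes of Tgfbr2 and Tgfbr3 lay nearer to the male changes. For the NonAD response Tgfb3 differed by -0.68 (-1.17 to -0.18, adjusted p = 0.212) and Tgfb1 by 0.56 (0.06 to 1.05, adjusted p = 0.325).

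The makeup of each family followed from these values. Expressed as a share of the summed ligand CPM per kilobase, Tgfb3 made up 69.5% ± 3.29 in MaCon and 49.4% ± 5.81 in MaAAD, and the ranges of 63.5% to 74.3% and 37.1% to 54.3% did not overlap. Tgfb1 made up 16.6% ± 4.42 and 36.1% ± 7.40 of ligand transcripts in the same groups. In females the share of Tgfb3 was 61.6% ± 4.93 in FeCon and 52.9% ± 10.4 in FeAAD, and that of Tgfb1 21.4% ± 4.24 and 31.5% ± 9.80, with overlapping ranges. The summed ligand level was 153.4 ± 26.8 CPM per kilobase in MaCon, 127.1 ± 11.3 in MaAAD, 131.5 ± 17.7 in FeCon and 130.9 ± 20.8 in FeAAD. Of the latent binders, Ltbp4 made up 55.2% ± 2.83 in MaCon and 38.5% ± 5.03 in MaAAD, and 59.7% ± 2.94 in FeCon and 36.3% ± 11.0 in FeAAD. Ltbp2 went from 6.67% ± 1.00 to 18.7% ± 4.84 in males and from 5.94% ± 0.464 to 19.1% ± 7.03 in females. In NonAD, Ltbp2 was at 11.1% ± 4.33 in MaNonAD and 9.11% ± 2.94 in FeNonAD, between Con and AAD. Among the ligands of FeNonAD, Tgfb3 at 63.8% ± 4.90 and Tgfb1 at 20.4% ± 3.98 did not lie between FeCon and FeAAD. The ratio of Ltbp2 to Ltbp4 reads had a mean of 0.153 in MaCon, 0.295 in MaNonAD and 0.631 in MaAAD, and of 0.125, 0.239 and 0.793 in the female groups. In FeAAD5 it was the highest, at 1.91. These shares were not tested apart from the genes they are made of.

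**Figure D3:**
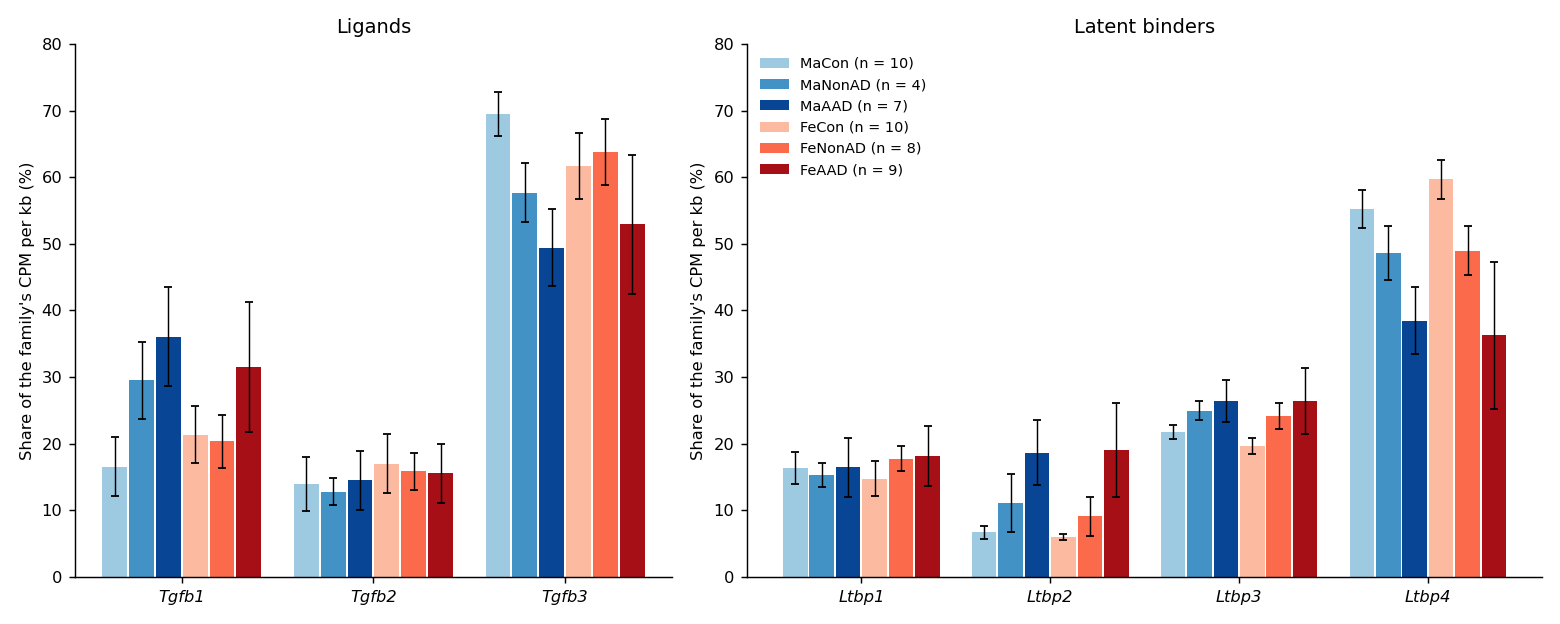
Mean share of each ligand (left) and each latent binder (right) in its family's summed CPM per kilobase, in percent, by group; error bars are SDs over libraries. The shares of Tgfb3 and Ltbp4 are lower and those of Tgfb1 and Ltbp2 higher in AAD than in Con of the same sex.

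Other genes of the pathway were counted in 5 lists. The lists were chosen with earlier results of these data known, so no pathway response is concluded from the counts. In the list for latency, matrix docking and activation, 8 of 16 tested genes rose and 1 fell in MaAAD against MaCon, and 10 rose and 1 fell in FeAAD against FeCon. The median log2 fold changes were 0.45 and 0.48, against -0.03 and 0.00 over all tested genes, of which 18.9% rose and 16.1% fell in males and 23.8% rose and 20.6% fell in females. These shares are the background for each list that follows. Thbs1, a matricellular protein that activates latent TGF-beta, went from a median of 76.0 CPM in MaCon to 724.7 CPM in MaAAD and from 86.1 CPM in FeCon to 868.6 CPM in FeAAD, with log2 fold changes of 3.32 ± 0.39 and 3.62 ± 0.39 (edgeR adjusted p = 1.56e-08 and 7.86e-10). Nrros, which anchors latent TGF-beta on macrophages and microglia, rose by 1.80 ± 0.27 and 1.62 ± 0.25, and Plau, the urokinase protease, by 1.49 ± 0.23 and 1.76 ± 0.22. Macrophage markers rose in the same comparisons, as given above, and their part in the Nrros and Tgfb1 values was not tested.

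Among 12 coreceptors and receptor regulators, 2 rose and 1 fell in males and 2 rose and 2 fell in females, no larger a share than over all tested genes (18.9% and 16.1% in males, 23.8% and 20.6% in females). Cd109, a TGF-beta coreceptor that dampens signaling, rose by 1.19 ± 0.15 in MaAAD and 1.10 ± 0.14 in FeAAD, and Dab2, an endocytic adaptor, by 1.40 ± 0.20 and 0.85 ± 0.19. Bambi, a decoy receptor, fell, with changes of -0.81 ± 0.14 and -0.46 ± 0.13. Of 10 SMADs and their nuclear partners, 3 rose and 1 fell in males and 1 rose and 4 fell in females, against 18.9% and 16.1% of all tested genes in males and 23.8% and 20.6% in females. None of the 10 was called for the sex difference in the AAD response, so these counts do not show that the sexes differed. In males Tgif1, a corepressor, rose by 0.99 ± 0.19, Smad3 by 0.62 ± 0.13 and Smad2 by 0.23 ± 0.07. In females the corepressor Ski (-0.49 ± 0.10), the inhibitory Smad6 (-0.82 ± 0.21) and the common mediator Smad4 (-0.28 ± 0.08) fell. Smad6 also fell in males (-0.66 ± 0.22), and Smad2 also rose in females (0.20 ± 0.07). Ski and Smad4 had means of 336.1 and 85.2 CPM in MaCon and of 432.4 and 102.9 CPM in FeCon. Their means were 306.8 and 82.8 CPM in MaAAD and 306.9 and 84.6 CPM in FeAAD. Tgif1 had means of 13.48 CPM in MaCon, 26.85 in MaAAD, 19.41 in FeCon and 25.73 in FeAAD. Smad3 was not called in females (-0.02 ± 0.12), its sex difference in response was 0.63 ± 0.18 (edgeR adjusted p = 0.0529), and in controls its difference, male minus female, was -0.68 ± 0.12 (edgeR adjusted p = 0.000128). Of 5 extracellular binders of ligand, Vasn, a TGF-beta trap of smooth muscle, fell in males (-0.67 ± 0.13) and females (-0.59 ± 0.12), and the other 4 were not called.

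Of 16 genes known to be induced by TGF-beta, 9 rose and 3 fell in MaAAD and 9 rose and 4 fell in FeAAD, against 18.9% and 16.1% of all tested genes in males and 23.8% and 20.6% in females. Those that rose included Fn1 at 1.47 ± 0.17 and 1.25 ± 0.16 and Col1a1 at 1.14 ± 0.17 and 1.28 ± 0.16. Col3a1, a fibrillar collagen of the vessel wall, rose by 1.14 ± 0.15 in females. In males Col3a1 ranged from 3913 to 5842 CPM in MaCon and from 6759 to 12180 CPM in MaAAD. Those that fell in both sexes were Cnn1 (-1.22 ± 0.20 in males and -1.09 ± 0.18 in females), Acta2 (-1.02 ± 0.19 and -0.81 ± 0.18) and Tagln (-0.94 ± 0.18 and -0.94 ± 0.17), which encode proteins of the contractile apparatus and are also in the smooth muscle marker list. Nox4, an oxidase, fell in females (-0.58 ± 0.19), and Ccn2, a matricellular protein, was not called (-0.16 ± 0.26 in males and 0.02 ± 0.24 in females). Against Con, 7 of the 16 genes rose and 0 fell in FeNonAD, and 1 rose and 0 fell in MaNonAD. In the latency list 3 rose and 2 fell in FeNonAD, and 0 were called in MaNonAD. Over all tested genes 14.5% were called in FeNonAD and 0.624% in MaNonAD, in either direction.

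**Figure D4:**
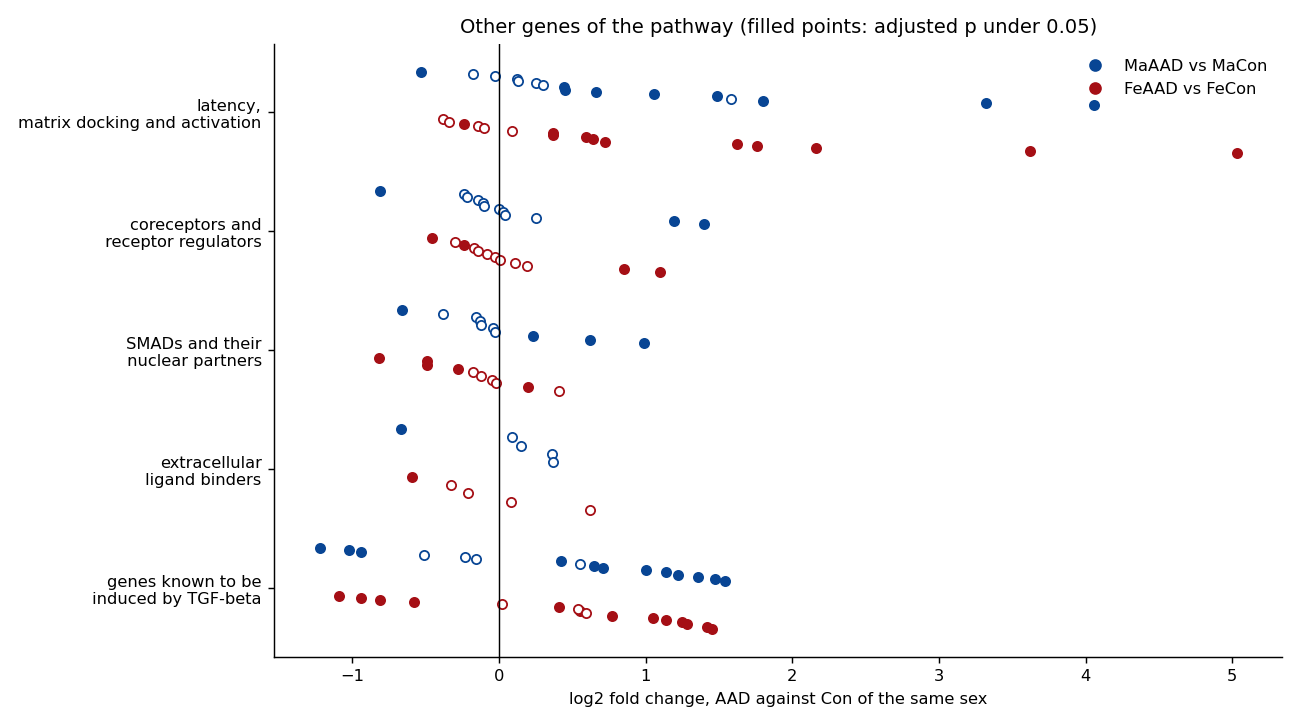
Log2 fold changes (x axis) of tested genes of 5 pathway lists in MaAAD against MaCon and FeAAD against FeCon, 1 point per gene, filled where the edgeR adjusted p was under 0.05. The point farthest right is Fbn2 in both sexes, at 4.06 and 5.03, from medians of 0.130 and 0.137 CPM in the controls.

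Across libraries, the 10 genes were compared after subtracting group means from log2 CPM. Over 48 libraries and 45 pairs the median Pearson r was 0.27, 9 pairs were over 0.5 and 4 were under -0.3. Such values share depth and tissue makeup within each library and are descriptions. Tgfbr2 and Tgfbr3 had r = 0.77, and Ltbp3 and Ltbp4 r = 0.77, the highest of all pairs. In the 16 AAD libraries Tgfb2 and Ltbp1 had r = 0.93 (0.91 without FeAAD5 and FeAAD9), but in the 32 Con and NonAD libraries r was 0.20. Tgfb1 ran against the receptors and Ltbp4 in AAD, with r = -0.87 to Tgfbr3, -0.69 to Tgfbr1, -0.67 to Tgfbr2 and -0.74 to Ltbp4, and without the same 2 libraries -0.86, -0.55, -0.68 and -0.58. In Con and NonAD libraries these were -0.36, -0.43, 0.13 and 0.47, so Tgfb1 was also negative to Tgfbr1 and Tgfbr3 there.

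**Figure D5:**
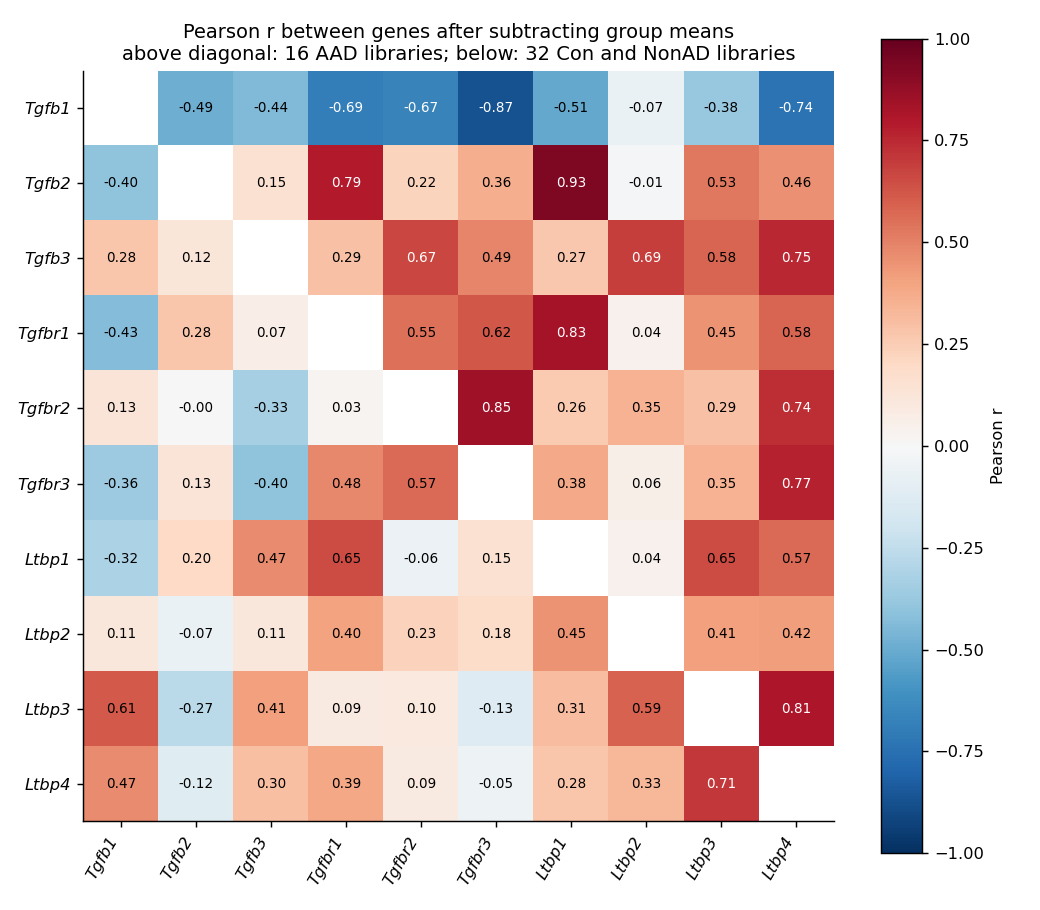
Pearson r between the 10 genes after subtracting group means, for 16 AAD libraries above the diagonal and 32 Con and NonAD libraries below it. The top row shows Tgfb1 with negative r to every other gene in AAD, from -0.87 with Tgfbr3 to -0.07 with Ltbp2; without FeAAD5 and FeAAD9, r was 0.00 with Tgfb3, 0.07 with Ltbp3 and 0.27 with Ltbp2.

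The same deviations were set beside scores of cell type markers, the mean log2(CPM + 1) of each list. In AAD libraries Ltbp1 had r = 0.87 with smooth muscle markers and Ltbp3 r = 0.73 (0.82 and 0.57 without FeAAD5 and FeAAD9). Ltbp4 had r = -0.78 with macrophage markers (-0.88 without those 2) and -0.91 with neutrophil markers (-0.66 without them). Tgfb1 had r = 0.67 with macrophage markers (0.61), 0.72 with neutrophil markers (0.47) and -0.77 with endothelium markers (-0.69). Tgfbr2 had r = 0.84 with fibroblast, 0.86 with endothelium and -0.83 with B cell markers. Without the 2 libraries these Tgfbr2 values were 0.34, 0.49 and -0.19. For both genes several lists gave values of like size, so no cell type is singled out. In Con and NonAD libraries the values for Ltbp4 and Tgfb1 with macrophage markers were -0.21 and 0.10. There Ltbp1 and Ltbp3 had 0.04 and 0.40 with smooth muscle markers, and Ltbp4 had -0.13 with neutrophil markers. Tgfbr2 had 0.34 with fibroblast and -0.10 with endothelium markers.

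For each gene the most similar patterns among other tested genes, by r over 48 libraries after subtracting group means, were also listed. They were not computed without FeAAD5 and FeAAD9, so the weight of those libraries in them is not known. Ltbp4 was nearest to Prelp and Calcoco1 (both r = 0.93) and Ace (0.92), Ltbp1 to Vcl (0.92), Pls3 (0.90) and Ano1 (0.89), and Ltbp3 to Clstn1 (0.89), P3h3 (0.87) and Npr2 (0.87). Ltbp2 was nearest to Col2a1 (0.84), Col8a1 (0.82) and Frzb (0.82). Tgfbr1 was nearest to Serinc1 and Pja2 (both 0.91) and Braf (0.89), Tgfbr2 to C1qtnf1 (0.87), Abca8a (0.86) and Olfml1 (0.85), and Tgfbr3 to Fbxo3 (0.85), Enpp4 (0.84) and Plscr4 (0.83). Tgfb1 was nearest to Arrdc1 (0.91), Rab4b and Rnh1 (both 0.88), Tgfb3 to Ube2h (0.79), Spry1 and Ano2 (both 0.76), and Tgfb2 to Btbd10 and Phtf2 (both 0.74) and Rbm12 (0.73).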

How the data were processed

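RNA from 48 thoracic aortas was sequenced by the authors from strand-specific mRNA libraries. Per the labels, the authors' processing used Bowtie2, RSEM 1.3.1 and GRCm39. The authors deposited expected counts per gene, estimated by RSEM and not scaled to library size, with 1 column per mouse. Of all values 4.99% were not whole, but 0% of the members' values, and all were rounded. Totals were 13548015 to 17281268, with a median of 15681338. Reads were counted without molecular identifiers.

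Groups came from the labels. Members and gene lists were chosen with earlier results of these data known. edgeR 4.0.16 in R 4.3.3 was fitted to all libraries after filterByExpr (14431 genes) and TMM, with 6 group means and robust quasi-likelihood, and p-values were Benjamini-Hochberg adjusted over all tested genes. SEs and 95% intervals were derived from each fitted log2 fold change and its F statistic and are approximate. Each library was 1 mouse, the labels give no batch, and p-values measure the spread between mice. Per the paper, each group was kept in several cages and the sexes were housed apart. Cage was not in the labels or the fit. The study's methods used DESeq2 with at least a 2-fold change. Members were tested on adjusted p alone, and both DESeq2 1.42.0 and the 2-fold rule were alternatives. Other alternatives were DESeq2 size factors in edgeR, no filter, no robust estimation, the compared groups only, a replicate block, and leaving out each MaNonAD library, FeCon10 or FeNonAD8. Leaving out FeAAD5, FeAAD9 or both was added after seeing the data. Lengths and gene locations came from GENCODE M21 (GRCm38.p6) and promoter windows from RefSeq. Likeness was Pearson r of log2 CPM (prior count 2). Genes of other lists named in the text were up to the 3 with the smallest p among called genes, per list and AAD comparison with Con. Fbn2, Acta2, Tagln, Nox4, Ccn2, the values of other named genes in the sex where the rule did not name them, and the libraries singled out were chosen after their values were seen. The script was tested on simulated counts. Python 3.11.15 and matplotlib 3.10.9 were used for tables and figures.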

Additional observations from a re-analysis of the deposited data

Results flagged for a closer look

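Of 60 groups of values (10 genes in 6 groups), 2 had a library whose gap to the nearest other library passed Dixon's 95% critical value, where chance alone flags about 1 in 20. Tgfb2 was at 100.8 CPM in MaNonAD4, against 71.4 to 72.9 CPM in the other MaNonAD libraries (gap over range 0.948, critical value 0.829). Ltbp3 was at 430.4 CPM in FeAAD5, against 821.3 CPM in the nearest other FeAAD library (gap over range 0.573, critical value 0.493). FeAAD5 also held the highest macrophage and neutrophil marker sums of its group, and their part in this value was not tested.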

How the results depend on the processing

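Of 14 calls of single genes across 15 alternative settings (210 values), 202 kept their call and direction, 8 lost the call and 0 changed sign. Of the genes not called, 17 values passed the threshold under an alternative and 58 changed sign, none of these with a log2 fold change over 0.23 in size. With the 2-fold rule the count of called genes was 1 in MaAAD against MaCon and 1 in FeAAD against FeCon, and 0 in FeAAD against FeNonAD and in MaCon against FeCon, where 1016 and 218 of all 14431 tested genes passed it. Without FeAAD5 and FeAAD9 together it was 2 in FeNonAD against FeCon, 1 in MaAAD against MaNonAD, 1 in FeAAD against FeNonAD, 4 in MaCon against FeCon and 1 for the sex difference in the AAD response. Calls over all tested genes moved in the same fit, from 2098 to 2681, 59 to 1130, 2626 to 1122, 2063 to 2710 and 194 to 486, respectively. With the compared groups only it was 2 in FeNonAD against FeCon (Ltbp2 and Ltbp4), 1 in FeAAD against FeNonAD and 4 in MaCon against FeCon, beside 2249, 1257 and 1872 of all genes. In FeAAD against FeNonAD, Ltbp2 (0.85, adjusted p = 0.0777) and Tgfbr3 (-0.37, adjusted p = 0.142) then lost their calls, and without a filter Tgfbr3 had an adjusted p of 0.0509. Leaving out single libraries gave 0 to 1 called genes in FeNonAD against FeCon (1 without FeAAD5: Ltbp4, adjusted p = 0.0486) and 2 to 4 in MaCon against FeCon (4 without FeAAD9), beside 1727 to 2449 and 1405 to 2424 of all genes. The cause of these moves was not tested.

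In the AAD comparisons with Con, 3 small differences changed sign. In MaAAD against MaCon, Tgfbr1 was 0.01 without FeAAD5 and FeAAD9 and with the compared groups only, and Tgfbr3 was 0.01 with DESeq2 or its size factors, 0.02 without a filter and 0.03 with the compared groups only or without both libraries. Leaving out single libraries gave -0.01 to 0.01 for Tgfbr1 and 0.00 to 0.03 for Tgfbr3. Ltbp1 in FeAAD against FeCon was 0.01 without both FeAAD libraries and -0.10 to 0.01 without single ones.

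Libraries of different groups share replicate numbers in the labels, but correlations of the deviations of same-numbered libraries ranged from -0.503 to 0.428 and no comparison had every pair over 0.1, so the numbers were not taken as pairs. With the replicate block, counts of called genes were 5 in MaAAD against MaCon, 4 in FeAAD against FeCon, 3 in FeAAD against FeNonAD and 2 in MaCon against FeCon, as without it, beside 4737, 6098, 2128 and 1802 of all genes (5050, 6412, 2626 and 2063 without it). Over all tested genes, the calls in MaAAD against MaNonAD were 59 in edgeR, 769 in DESeq2 and 0 with the block, and those in MaNonAD against MaCon 90 in edgeR and 165 in DESeq2.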
